A study of Homo sapiens with 8 samples.

Results

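Genes that span very long stretches of DNA hold most of their sequence in introns, and those introns can carry enhancers, which act at a distance on the host gene or on its neighbours. Of the 35542 H3K27ac intervals that passed the height filter in these data, 1552 lay in introns of protein-coding genes of at least 500 kb, here called long genes. They were found by merging the peaks of 6 lists that overlapped or touched into 143733 intervals, keeping those whose fold over local background was at least 5 in all 3 libraries of one genotype, and asking where the summit of the highest peak fell. It had to lie inside a long gene of GENCODE release 44 on hg38, outside the exons of the canonical transcripts and more than 3 kb from the start of any transcript.

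The libraries came from HCEC-1CT, a line of human colonic epithelial cells immortalised with telomerase and CDK4. All cells descend from clones that carry a lentiviral Cas9 switched on by doxycycline. The WT group holds 3 libraries of parental cells and the CREBBP-KO group 3 libraries of cells in which CREBBP was knocked out after a day of doxycycline and transfection with guide RNAs, each taken by ChIP-seq (sequencing of the DNA bound to immunoprecipitated chromatin) with an antibody against H3K27ac. No treatment at the time of ChIP is named, and both groups grew in the same medium with serum, EGF, insulin, transferrin, selenite and hydrocortisone. Per the methods, knockout clones were raised from single cells and several were pooled, beside a pool of parental subclones. The ChIP-seq methods call the CREBBP-KO cells monoclonal, so whether a pool or a single clone was used is not settled. Nothing says that the 3 libraries of a genotype came from separate cultures, so p-values measure the spread between libraries, which may be technical. The lists hold no measure of CREBBP itself, and genotype cannot be told apart from clonal origin.

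H3K27ac is an acetyl mark that p300 and its paralogue CREBBP (also called CBP) place on nucleosomes around active promoters and enhancers. Long genes are often genes of neurons, of adhesion and of signalling, and several of them lie over common fragile sites, where replication under stress leaves gaps. An intron can hold an enhancer whether or not the gene around it is transcribed.

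Intervals were compared between libraries by rank, because the lists hold no reads and each list has its own scale. A library's normal score for an interval is the rank of its highest fold among the 34864 intervals that passed the filter and were listed by every library, turned into a standard normal value, so that 0 is the median interval and a positive score a higher one. The rank shift is the mean score in CREBBP-KO minus that in WT. The percentile of an interval is the percent of peaks in that library's own list whose fold is no higher.

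The lists held from 86163 to 93567 peaks in WT and from 99008 to 111697 in CREBBP-KO. The lists hold no read counts. Reads were reduced to a shared ceiling per sample for comparable depth, per the methods, which do not say whether the lists come from those reads. At the promoters of marker genes, VIM, a mesenchymal filament that cultured epithelial cells also make, had a peak at the 96.2nd to 98.4th percentile in all 6 libraries. The epithelial genes EPCAM and KRT8 had a peak in 6 libraries, at percentiles from 0.175 to 46.2 and from 32.9 to 73.5, and KRT18 in 5. CDH1 (E-cadherin) and the intestinal genes CDX2, VIL1 and LGR5 had none in any library, so these defining markers of intestinal epithelium had no listed promoter peak. Peaks elsewhere in these genes were not looked at.

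The DNA under the intervals is shown for those that carry the results: 3 of the intervals that fell furthest in CREBBP-KO, 3 of those that rose furthest, and 2 that stood near the top of every list. Each line gives a window centred on the summit, from hg38 and on the plus strand, with capitals where the letters match one of 10 short motifs searched on both strands (the letters are given with the motif counts).
CCSER1 (fell), chr4:90318007-90318207: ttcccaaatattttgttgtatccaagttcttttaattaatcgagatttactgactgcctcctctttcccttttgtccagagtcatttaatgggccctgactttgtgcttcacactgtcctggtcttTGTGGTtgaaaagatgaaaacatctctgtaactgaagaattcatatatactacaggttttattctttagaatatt
PRKG1 (fell), chr10:51217906-51218106: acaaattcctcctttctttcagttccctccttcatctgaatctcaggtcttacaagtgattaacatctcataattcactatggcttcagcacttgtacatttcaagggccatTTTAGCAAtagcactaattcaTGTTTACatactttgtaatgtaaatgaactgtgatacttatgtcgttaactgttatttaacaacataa
ERC2 (fell), chr3:55885359-55885559: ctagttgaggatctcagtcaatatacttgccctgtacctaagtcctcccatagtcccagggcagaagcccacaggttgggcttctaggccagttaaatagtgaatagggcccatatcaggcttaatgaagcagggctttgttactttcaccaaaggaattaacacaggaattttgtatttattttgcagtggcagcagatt
DNM3 (rose), chr1:172287044-172287244: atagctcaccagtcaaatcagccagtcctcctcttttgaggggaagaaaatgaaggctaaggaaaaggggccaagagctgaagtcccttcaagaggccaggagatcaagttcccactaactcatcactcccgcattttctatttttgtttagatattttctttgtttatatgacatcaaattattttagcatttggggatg
CTNNA2 (rose), chr2:79723552-79723752: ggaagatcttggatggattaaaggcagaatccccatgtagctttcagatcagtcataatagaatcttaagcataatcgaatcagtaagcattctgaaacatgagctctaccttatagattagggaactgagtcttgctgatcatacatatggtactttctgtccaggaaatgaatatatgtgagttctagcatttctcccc
ZFHX3 (rose), chr16:73020303-73020503: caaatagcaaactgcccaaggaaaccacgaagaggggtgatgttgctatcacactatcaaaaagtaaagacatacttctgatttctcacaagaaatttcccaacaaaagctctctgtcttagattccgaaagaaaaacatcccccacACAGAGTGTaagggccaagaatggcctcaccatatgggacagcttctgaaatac
SLC9A9 (top of the lists), chr3:143609468-143609668: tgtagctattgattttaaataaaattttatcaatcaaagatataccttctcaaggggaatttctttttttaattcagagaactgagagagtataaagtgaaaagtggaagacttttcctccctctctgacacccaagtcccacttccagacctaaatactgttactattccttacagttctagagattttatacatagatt
ADAMTSL1 (top of the lists), chr9:18491036-18491236: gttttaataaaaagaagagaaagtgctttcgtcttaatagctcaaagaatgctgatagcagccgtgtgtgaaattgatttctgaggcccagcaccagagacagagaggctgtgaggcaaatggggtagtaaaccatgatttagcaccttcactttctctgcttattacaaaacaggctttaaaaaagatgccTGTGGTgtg
The capitals mark TGTGGT (the letters searched for RUNX factors) in CCSER1 from base 127 and in ADAMTSL1 from base 193, TTTAGCAA (CEBP) and TGTTTAC (FOX) in PRKG1 from bases 113 and 134, and ACAGAGTGT (glucocorticoid receptor) in ZFHX3 from base 148. The other 4 windows hold none of the motifs. The windows of the rising and falling intervals overlapped in GC content, at 34.8%, 33.3% and 44.3% for the 3 that fell and 40.8%, 38.3% and 42.3% for the 3 that rose.

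The human annotation holds 323 long genes, and 226 of them (70.0%) had at least 1 interval. The median host had 6, 30 hosts had 1, and the 59 hosts with 10 or more held 811 intervals, or 52.3% of the total. The largest sets lay in genes of unlike function. RAD51B, a protein of homologous recombination repair, had 31 over 910440 bp, and 16 of them lay in intron 7. LPP, a LIM-domain protein of focal adhesions, had 27, and the glypican GPC6 had 22.

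RUNX1, a transcription factor of haematopoiesis and epithelia, and PDE4D, a phosphodiesterase that breaks down cAMP, had 21 each. In PDE4D 13 of the 21 lay in intron 1. NRG1, a ligand of the ERBB receptors, had 20, and NALF1, an auxiliary factor of the NALCN sodium leak channel, had 19, of which 18 lay in intron 1. SBF2 (a myotubularin-related protein) and RBMS3 (an RNA-binding protein) had 18 each. DPYD, the enzyme that degrades pyrimidines, the atypical cadherin CDH13, the cGMP-dependent kinase PRKG1 and IQCJ-SCHIP1, a readthrough of IQCJ and SCHIP1, had 17 each.

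Some hosts in the annotation are readthrough models named only by an identifier, and 27 intervals had no other long host. ENSG00000282278 had 20 intervals, of which 7 also lay in LNX1, 1 in CHIC2 and 1 in PDGFRA. All but 1 of the 17 intervals of ENSG00000283563 were also counted in RBMS3. Altogether 28 intervals lay in more than 1 long gene and 36 also in a shorter protein-coding gene.

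**Figure D1:**
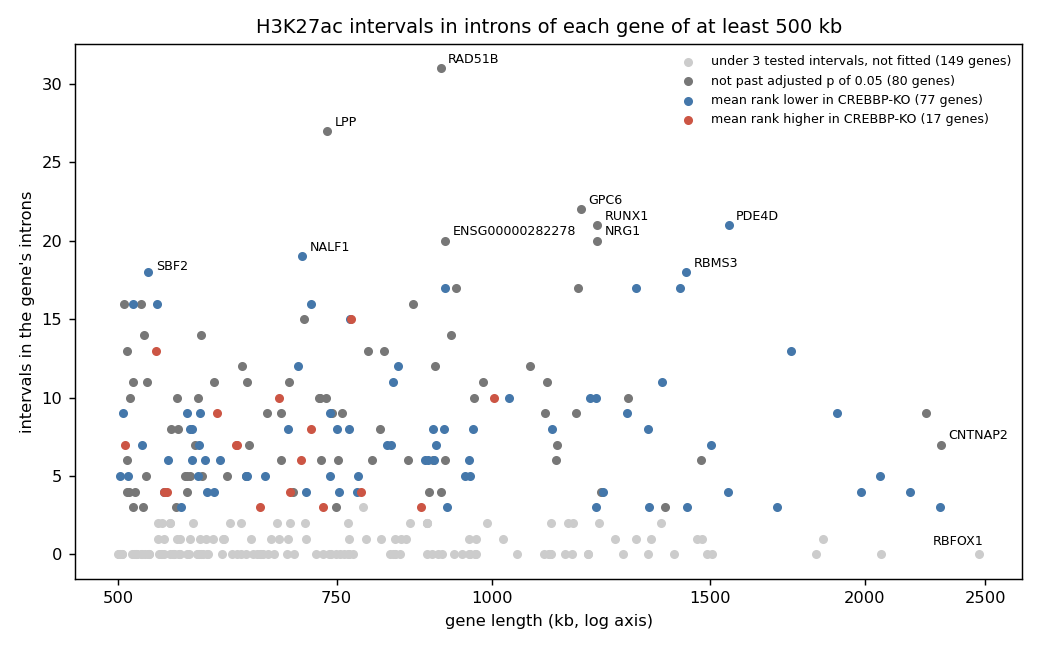
Number of long-gene intronic H3K27ac intervals (vertical axis) against gene length in kb (horizontal log axis) for the 323 genes of at least 500 kb, coloured by the limma result for the gene. RAD51B with 31 and LPP with 27 stand highest although many genes are longer, and RBFOX1, the longest gene without an interval, sits at 0.

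The longest host, CNTNAP2, a neurexin-like adhesion protein of 2304997 bp, had 7, and 97 long genes had none, among them RBFOX1 (the longest), CSMD1, PCDH15 and AGBL4. None of these 4 had an interval within 1 kb of any of its starts. Such a promoter interval was present for 148 of the 226 hosts (65.5%), for 13 of the 97 genes without an intronic interval (13.4%) and for 58 of the 59 hosts with 10 or more (98.3%). The exception among the last, IL1RAPL2, had 10, and the hosts with 9 intervals and no promoter interval were CDH18 (a cadherin), DNM3 (a dynamin) and LRP1B (an LDL receptor relative).

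Per Mb of gene, long genes held 5.77 distal intronic intervals, genes of 100 to 500 kb 10.1 and shorter genes 6.05. Within the hosts, the 4 equal bins from the 5′ to the 3′ end held 365, 346, 418 and 423 intervals, so they did not crowd at the start. The first intron of the canonical transcript held 245 (15.8%), and 761 (49.0%) lay in introns over 100 kb. The median distance to the nearest start of any transcript was 24.2 kb and the longest 346 kb. Neighbours in one host were a median of 34.1 kb apart. The intervals had a median width of 3057 bp.

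The limits of the rule cut through a continuous range of lengths, distances and folds. The shortest host, KCNAB1 at 501438 bp, had 5 intervals, and DIAPH3 at 498346 bp, just outside, had 9. An interval in ROBO2 lay 3019 bp from a start and was kept, and one in IQCJ-SCHIP1 lay 2991 bp away and was not. At the fold limit, an interval in FGF14 had a lowest qualifying fold of 5.01, and one in TBC1D5 reached 5.00 (4.99673 before rounding) and was left out.

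The first question of the design is whether the loss of CREBBP changed H3K27ac at these intervals. Of the 1552, 995 (64.1%) passed the filter in both genotypes, 314 (20.2%) in WT only and 243 (15.7%) in CREBBP-KO only. Over all 35542 filtered intervals the shares were 73.9%, 11.3% and 14.8%, and for distal intervals in genes of 100 to 500 kb 66.6%, 15.6% and 17.8%. Most of the one-genotype intervals were still listed in the other genotype: 278 of the 314 and 227 of the 243 had a peak in all 3 libraries there.

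Of the 1500 intervals with a peak in all 6 libraries, 456 (30.4%) ranked lower in CREBBP-KO and 168 (11.2%) higher (limma, Benjamini-Hochberg adjusted p under 0.05 over the 34864 intervals tested), beside a background of 18.7% lower and 18.6% higher. The remaining 876 did not pass. The median rank shift of all 1500 was -0.22, against 0.02 over all tested intervals. Since an interval that passed the height filter in one genotype only had to differ, the count was also taken over the 995 that passed in both, and there 255 (25.6%) were lower and 76 (7.64%) higher. Other distal intervals that passed in both were lower in 20.6% and higher in 9.24%. The counts below are over all 1500 unless stated, and share this limit.

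This tilt moved with base composition. In the CREBBP-KO libraries the normal score rose with the GC content of the interval (Pearson's r 0.24, 0.22 and 0.23 over 34847 intervals), and in the WT libraries it hardly did (-0.03, -0.02 and 0.09). These are descriptions across intervals of the same libraries. Long-gene intronic intervals were poor in GC, with a median of 39.0% against 41.2% for other distal intervals and 44.1% over all filtered ones. When a cubic trend on GC content was taken out of each library's scores, 299 (19.9%) were lower and 262 (17.5%) higher, beside 18.0% and 16.6% of other distal intervals and 16.6% and 16.2% of all intervals. With that trend removed the median shift was -0.04.

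Without bins, 30.4% of the intervals of long genes were lower against 23.9% of other distal intervals. Within bins of GC content (all tested intervals cut into 4 bins of like size) the share was higher for long genes in every bin. In the bin lowest in GC, 36.5% of 794 were lower against 34.6% of 6067, and in the next 27.3% of 479 against 22.6% of 5528. In the upper bins the shares were 15.8% of 196 against 14.3%, and 12.9% of 31 against 9.32%. The relation to GC separates the same libraries as the genotype does, and in these 6 lists they cannot be told apart.

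**Figure D2:**
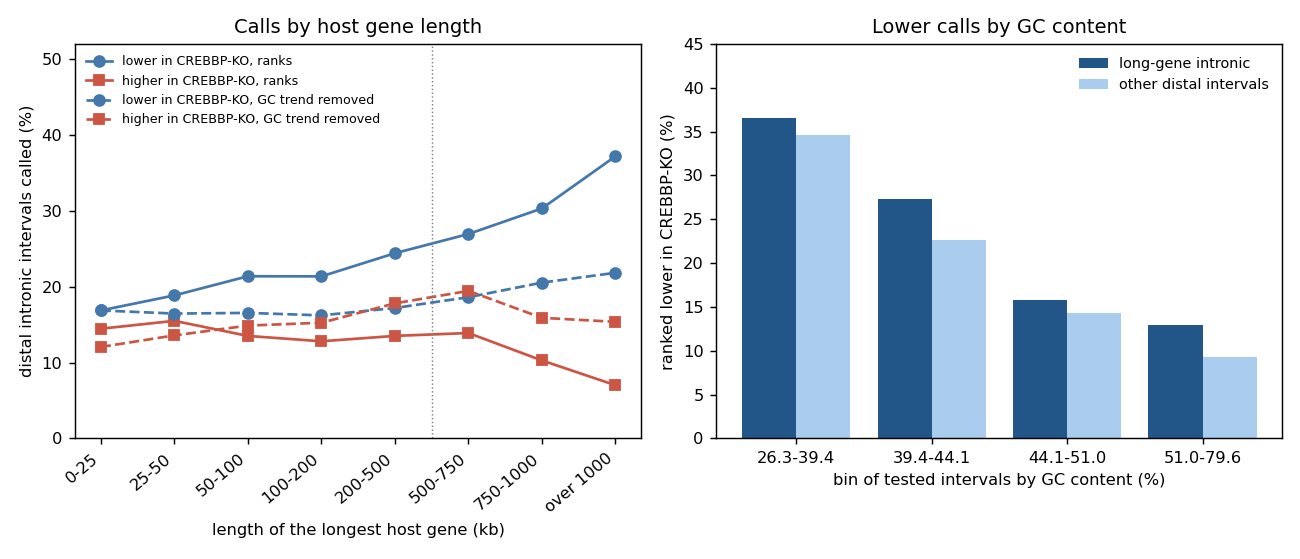
Left, percent of distal intronic intervals ranked lower or higher in CREBBP-KO (limma adjusted p under 0.05) by the length of the longest host gene in kb, from ranks (solid) and after removal of the GC trend (dashed), with a dotted line at 500 kb. Right, percent ranked lower in each of 4 bins of GC content, for long-gene intronic intervals (dark bars) and other distal intervals (light bars). Lower calls climb from 16.9% to 37.2% with host length from ranks, and from 16.9% to 21.8% with the GC trend removed.

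The share of lower intervals was larger in longer hosts. It was 16.9% for hosts under 25 kb, 21.4% for 100 to 200 kb, 24.4% for 200 to 500 kb, 26.9% for 500 to 750 kb, 30.3% for 750 to 1000 kb and 37.2% above 1000 kb, and in the last class 7.01% were higher. With the GC trend removed the same classes gave 16.9%, 16.2%, 17.2%, 18.6%, 20.5% and 21.8%, with 15.4% higher in the last. GC content fell along the same axis: intervals of hosts over 1000 kb had a median of 37.5% and those of hosts of 500 to 1000 kb 39.5%.

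The genotypes did not overlap, all 3 CREBBP-KO scores lying below all 3 WT scores, at 528 intervals (background 23.3% of all tested), and above them at 230 (background 24.8%). At an adjusted p under 0.0001 in limma, 42 were lower (2.80%) and 14 higher (0.933%), beside 1.62% and 1.16% of all tested. In the lowest of 4 bins by mean score 35.8% of the intervals were lower and 14.6% higher, against 26.3% and 21.1% of other distal intervals there. In the highest bin the shares were 31.6% and 9.91%, close to the 30.5% and 9.96% of other distal intervals. By position, 34.3% of 236 intervals in the first intron were lower and 30.7% of 1054 in later introns. By distance to any start, 31.7% of 341 intervals at 3 to 10 kb were lower. The share was 28.5% of 529 at 10 to 30 kb, 28.8% of 510 at 30 to 100 kb and 41.7% of 120 beyond 100 kb. In shorter genes it rose at each step, from 20.6% through 22.8% and 25.4% to 33.9% of the 62 beyond 100 kb.

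Per library, the median normal score of long-gene intronic intervals minus that of other distal intervals was 0.03, 0.08 and 0.02 in WT and -0.10, -0.06 and -0.06 in CREBBP-KO, without overlap. The exact permutation test gave p = 0.1, which is the smallest that 3 libraries against 3 allow. The median percentile within the list did not separate the genotypes, at 78.2, 78.6 and 74.8 in WT and 78.2, 77.6 and 76.5 in CREBBP-KO (77.2 ± 2.06 against 77.4 ± 0.850, SD, n = 3, exact permutation p = 1). The mean of this median was 0.24 higher in CREBBP-KO here. It was 2.01 higher for hosts of 100 to 500 kb, 2.61 for shorter hosts and 1.73 outside protein-coding genes. Those groups overlapped too (exact permutation p = 0.2, 0.2 and 0.3). A percentile depends on how many weak peaks a list holds, and the CREBBP-KO lists were longer.

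Counted peak by peak at any height, introns of long genes held 4833, 4907 and 4334 peaks in WT and 5517, 5095 and 4881 in CREBBP-KO, with overlap (exact permutation p = 0.2). As a share of the list these were 5.17%, 5.28% and 5.03% in WT and 4.94%, 4.85% and 4.93% in CREBBP-KO, lower in all 3 (exact permutation p = 0.1). Of peaks with a fold of at least 5 the share was 4.64% ± 0.175 in WT and 4.25% ± 0.0466 in CREBBP-KO (SD, n = 3, exact permutation p = 0.1).

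**Figure D3:**
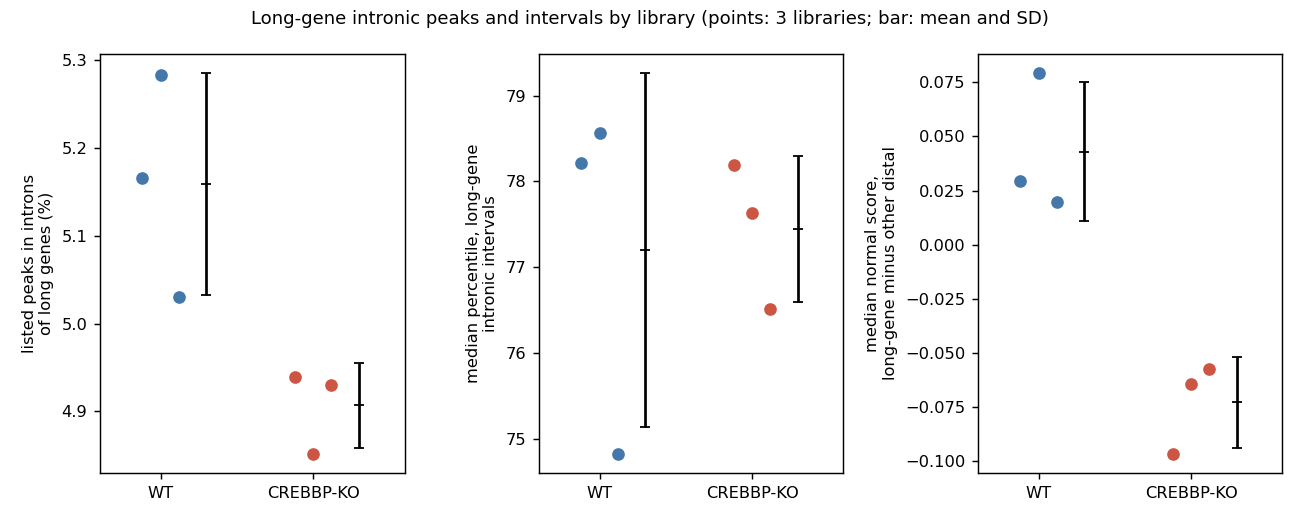
Each point is 1 library, with the mean and SD of 3 beside it: left, percent of listed peaks in introns of long genes, middle, median percentile of long-gene intronic intervals, right, their median normal score minus that of other distal intervals. The vertical axes do not start at 0. The genotypes separate on the left and on the right and overlap in the middle.

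The 6 largest falls lay in CCSER1, ERC2, PRKG1, DLG2, CNTN4 and SEMA6D. All 6 passed the height filter in WT only, and the 6 largest rises in CREBBP-KO only, so each had to differ, and their values are given as a description without a test. CCSER1, a fragile-site gene with 1 interval in all (chr4:90315018-90320715, intron 3), had a fold of 19.5, 24.4 and 22.4 in WT and 5.14, 6.90 and 4.81 in CREBBP-KO. It stood among the tallest peaks of the WT lists, at the 97.5th percentile or above, and between the 58.7th and the 73.9th in CREBBP-KO. Its rank shift was -3.06 ± 0.231 (SE).

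In ERC2, an active-zone scaffold of synapses, different introns went opposite ways. The interval in intron 14 (chr3:55884583-55886170) had folds of 10.0, 12.3 and 8.23 in WT and 3.91, 2.54 and 2.27 in CREBBP-KO, a shift of -3.21 ± 0.353 (SE). The interval in intron 6 (chr3:56131377-56134461) had folds of 3.65, 3.60 and 3.94 in WT and 9.65, 9.01 and 8.75 in CREBBP-KO, a shift of 1.99 ± 0.278 (SE). Neither pair of groups overlapped, as the choice required, and ERC2 had no promoter interval.

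PRKG1 lost height in intron 2 (chr10:51216900-51220486), with folds of 7.81, 8.68 and 5.41 in WT and 2.88, 2.93 and 2.26 in CREBBP-KO. The interval in DLG2, a synaptic scaffold, had folds of 7.09, 7.21 and 8.73 in WT and 3.01, 2.11 and 3.51 in CREBBP-KO. That in CNTN4, a contactin of the immunoglobulin family, had folds of 16.4, 13.5 and 11.6 and then 4.42, 5.19 and 4.36. In all 3 each WT library stood above each CREBBP-KO library, as the choice required, and their rank shifts were -2.66, -2.80 and -2.50. The interval in SEMA6D, a transmembrane semaphorin, had folds of 10.4, 10.7 and 8.08 in WT and 3.63, 2.87 and 3.72 in CREBBP-KO. Its rank shift was -2.62.

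Among the rises, the interval in intron 15 of DNM3 (chr1:172285824-172289113) went furthest, with folds of 4.07, 3.80 and 3.28 in WT and 11.6, 10.4 and 12.2 in CREBBP-KO. Its rank shift was 2.37 ± 0.275 (SE). The interval in CTNNA2, a catenin that ties cadherins to actin, had folds of 3.11, 4.52 and 2.26 in WT and 7.19, 8.50 and 7.22 in CREBBP-KO. Its WT libraries were spread widely in rank, from -3.52 to -1.61, and lay below the others, as the choice required. The shift was 2.14 ± 0.367 (SE).

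ZFHX3, a large zinc-finger and homeobox factor, had in intron 1 an interval with folds of 2.64, 3.40 and 3.85 in WT and 6.42, 8.21 and 9.75 in CREBBP-KO. The interval in NAV2, a neuron navigator protein, had folds of 3.55, 2.91 and 4.49 in WT and 8.90, 8.79 and 9.55 in CREBBP-KO and a shift of 2.07. STK3 (MST2), a kinase of the Hippo pathway, had a shift of 2.13, with folds of 3.18, 3.45 and 3.68 and then 10.8, 9.44 and 6.92. In these 3 genes too the genotypes did not overlap, as the choice required. After removal of the GC trend the shifts were 1.90 to 2.54 for these 6 higher intervals and -3.14 to -2.26 for the 6 lower ones.

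The filter did not require a difference at intervals that passed in both genotypes, and there the shifts were smaller. The largest, picked after the values were seen, were falls in MAGI1, a scaffold of cell junctions, PRKCE (protein kinase C epsilon) and NRXN3, a presynaptic neurexin. MAGI1 had folds of 20.0, 21.9 and 19.8 in WT and 7.66, 7.98 and 8.38 in CREBBP-KO (shift -1.98 ± 0.168, SE, limma adjusted p = 1.87e-07). PRKCE and NRXN3 had shifts of -1.78 and -1.77 (limma adjusted p = 5.30e-06 and 1.30e-05). Among the rises, GMDS, an enzyme of GDP-fucose synthesis, had folds of 8.73, 7.17 and 8.89 in WT and 17.7, 19.2 and 19.6 in CREBBP-KO (shift 1.36 ± 0.179, SE, limma adjusted p = 1.26e-05). A second ADAMTSL1 interval and one in SMYD3, a methyltransferase, rose by 1.29 and 1.28. In all 6 the genotypes did not overlap.

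The intervals highest in both genotypes were in SLC9A9 (an endosomal sodium/proton exchanger), ADAMTSL1 (an ADAMTS-like matrix protein), PRKCA (protein kinase C alpha), TENM2 (a teneurin) and THSD4 (a matrix protein that binds fibrillin). The SLC9A9 interval (chr3:143598524-143615949), 17426 bp wide, had folds of 40.2, 38.8 and 33.3 in WT and 36.1, 38.5 and 35.5 in CREBBP-KO. The ADAMTSL1 interval was 25957 bp wide, with folds of 28.7, 33.7 and 30.1 and then 28.7, 35.4 and 39.0. Neither passed the test (limma adjusted p = 0.0731 and 0.576, SLC9A9 at 0.0389 without WT replicate 3), nor did PRKCA and THSD4 (0.363 and 0.521). TENM2 fell by 1.03 (limma adjusted p = 0.000384), with folds of 38.5, 34.3 and 31.2 in WT and 26.8, 26.2 and 28.5 in CREBBP-KO, but its shift was -0.27 and did not pass when ranks were taken from -log10 p (limma adjusted p = 0.237).

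At 10 intervals one genotype had no peak at all, 6 listed in WT only and 4 in CREBBP-KO only. Over all 35542 filtered intervals these counts were 58 and 104. Over the 8535 distal intervals outside protein-coding genes they were 32 and 42. Listed in the 3 WT libraries only were intervals in KIAA1217 (folds of 6.10, 6.17 and 5.66), NCAM2 (8.06, 7.77 and 8.23), NLGN1 (5.45, 5.30 and 5.20), KCNMB2 (7.16, 7.28 and 9.30), SEMA3A (6.02, 6.93 and 5.40) and NRG1 (5.32, 5.12 and 5.67). Of these, NCAM2 and NLGN1 encode neural adhesion proteins, KCNMB2 a subunit of BK potassium channels and SEMA3A a secreted semaphorin. Listed in the 3 CREBBP-KO libraries only were intervals in DNM3 (6.42, 5.19 and 6.68), MYT1L (7.62, 6.76 and 6.06), SPOCK1 (5.27, 7.67 and 5.19) and, in the first intron of the readthrough ENSG00000283563 and within ZCWPW2, one with folds of 6.91, 12.7 and 9.91. A peak missing from a list is below the caller's threshold, and its fold is not known to be 0. Both DNM3 sites lay in intron 15, and both passed the filter in CREBBP-KO only, so they had to be higher there. Over the 4 intervals of DNM3 that passed in both genotypes the mean was lower in CREBBP-KO (shift -0.35, limma adjusted p = 0.0215).

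The intervals of one gene share their surroundings, so each gene was also tested as a unit by the mean score of its distal intronic intervals. Of the 174 long genes with at least 3 tested intervals, 77 (44.3%) had a lower mean in CREBBP-KO and 17 (9.77%) a higher one (limma adjusted p under 0.05 over 1276 genes), beside a background of 31.5% lower and 15.0% higher. With the GC trend removed, 40 were lower (22.99%) and 26 higher (14.9%), beside 19.5% and 18.1% of all 1276 genes. These means include intervals that passed the height filter in one genotype only, such as 9 of the 17 in PRKG1. Over the 142 long genes with at least 3 intervals that passed in both genotypes, 58 (40.8%) were lower and 10 (7.04%) higher, beside 30.4% and 9.16% of 830 genes. The gene-level shift and the median GC content of the gene's intervals had a Pearson's r of 0.32 over the 174 genes, as a description, and the 77 lower genes had a median GC of 38.1% and the 17 higher ones of 42.0%.

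NRXN3 had the lowest shift, on 3 intervals, with mean scores of 0.21, 0.23 and -0.13 in WT and -1.15, -1.43 and -1.15 in CREBBP-KO (shift -1.35 ± 0.132, SE, limma adjusted p = 8.42e-06). Without CREBBP-KO replicate 2 its shift was -0.81 and that of DAB1, at -1.39, was the lowest of the 5. DAB1, an adaptor of reelin signalling, fell by 1.31, CSMD3 fell by 1.27 and FSTL5 fell by 1.22, on 4, 3 and 5 intervals. NRXN3, DAB1 and CSMD3 each had fewer than 3 intervals that passed in both genotypes. Part of each of these means had to differ, so their shifts and calls are a description. SEMA3A rested on more, with 14 tested. Its mean scores were 0.06, 0.15 and -0.05 in WT and -1.02, -1.31 and -1.13 in CREBBP-KO (shift -1.20 ± 0.118, SE, limma adjusted p = 8.42e-06), 11 of the 14 passed as lower and 0 as higher, and its promoter interval was lower too (shift -0.68, limma adjusted p = 0.00674). Over the 6 intervals of SEMA3A that passed in both genotypes the shift was -0.78 (limma adjusted p = 3.72e-05), and with the GC trend removed it was -0.73.

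On the other side ULK4, a pseudokinase with 8 intervals, had mean scores of -0.85, -0.89 and -1.04 in WT and of 0.12, -0.0031 and 0.01 in CREBBP-KO (shift 0.97 ± 0.108, SE, limma adjusted p = 1.60e-05), with 6 of 8 intervals higher and 0 lower. SPOCK1, a testican proteoglycan, rose by 0.75 and GMDS rose by 0.58. EXOC6B, an exocyst subunit, rose by 0.65 on 3 intervals, a call that was lost without CREBBP-KO replicate 1 (limma adjusted p = 0.0632). IQCM rose by 0.58 on 4 intervals, and its groups overlapped (-0.61, -0.10 and -0.93 in WT, -0.22, 0.01 and 0.31 in CREBBP-KO, limma adjusted p = 0.0166). IQCM lost the call without WT replicate 1, WT replicate 3 or CREBBP-KO replicate 3 (limma adjusted p = 0.0586, 0.0846 and 0.0843). All 10 genes kept their direction and their call with the GC trend removed. Only 4 of them had at least 3 intervals that passed in both genotypes, and all 4 kept direction and call there. Their shifts were -0.85 in FSTL5, -0.78 in SEMA3A, 0.58 in SPOCK1 and 0.46 in GMDS. The others, ULK4 and NRXN3 among them, could not be fitted this way. Part of each of their means comes from intervals that had to differ, so their calls are a description.

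**Figure D4:**
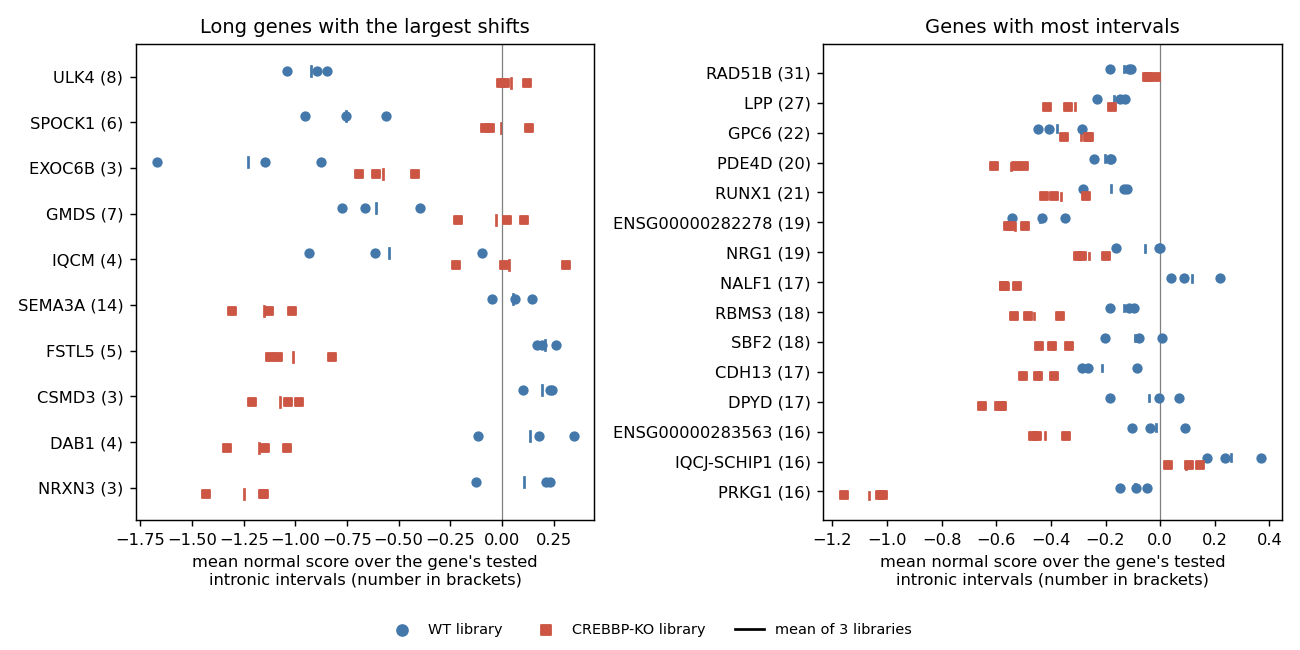
Mean normal score of a gene's tested distal intronic intervals (horizontal axis) in each WT library (circles) and each CREBBP-KO library (squares), with the mean of 3 as a bar and the number of intervals in brackets. Left, the 5 long genes with the largest rises and the 5 with the largest falls; right, the genes with 17 or more intervals, where PRKG1 lies furthest apart and the genotypes of RAD51B, LPP and GPC6 lie close together.

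Among the genes with most intervals, PRKG1 moved most. Its mean scores were -0.05, -0.09 and -0.15 in WT and -1.03, -1.01 and -1.16 in CREBBP-KO (shift -0.97 ± 0.110, SE, limma adjusted p = 1.77e-05), and 12 of 16 tested intervals were lower and 0 higher. Over the 8 that passed in both genotypes the shift was -0.50 (limma adjusted p = 0.000693). Its promoter interval had a shift of -0.19, which did not pass (limma adjusted p = 0.414). NALF1 and DPYD were lower as well, by shifts of -0.67 and -0.56 with 11 of 17 intervals lower in each, while the promoter interval of DPYD was higher (shift 0.58, limma adjusted p = 0.0225).

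PDE4D, RBMS3 and SBF2 passed with smaller shifts of -0.34, -0.33 and -0.30, and 8 of 20, 6 of 18 and 6 of 18 of their intervals were lower. Over intervals that passed in both genotypes RBMS3 no longer passed (shift -0.18, limma adjusted p = 0.142), while LPP and CDH13 did (shifts -0.28 and -0.35, limma adjusted p = 0.0376 and 0.0108). RAD51B, LPP, GPC6, RUNX1, NRG1 and CDH13 did not pass as genes over all tested intervals. RAD51B had 4 intervals higher and 3 lower of 31, LPP 3 and 8 of 27, GPC6 3 and 6 of 22, RUNX1 1 and 2 of 21 and NRG1 2 and 3 of 19. A gene can have several promoter intervals, and the highest by mean score was taken. That of RAD51B, from 4, and that of LPP, from 6, were lower, by shifts of -1.27 and -1.29 (limma adjusted p = 6.40e-05 and 2.59e-05).

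Calls in opposite directions occurred within one gene. Of all tested intervals 18.7% were lower and 18.6% higher, and no like count was made for shorter genes, so the counts here are a description. Of 134 hosts with at least 5 tested intervals, 65 had at least 1 called in each direction, 56 only lower ones, 11 only higher ones and 2 none. Every interval had a negative shift in 13 of them and a positive one in 2. With promoter intervals that enter no intronic mean, the promoter shift and the gene-level intronic shift had a Pearson's r of 0.18 over 126 hosts, as a description. Of these 126 promoters 23 were lower and 31 higher. The background over all tested intervals within 3 kb of a start or in a canonical exon was 12.4% lower and 23.3% higher. Among the 50 lower genes 13 promoters were lower and 9 higher, and among the 12 higher genes 1 was lower and 5 higher.

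By the known roles of the host genes, all 7 lists had more lower than higher intervals, the lists share genes, and the counts include intervals that passed the filter in one genotype only. Axon guidance genes (ROBO, semaphorin, netrin and navigator families) had 31 of 72 tested intervals lower (43.1%) and 8 higher, with a median shift of -0.37. SEMA3A alone gave 14 of these 72 and 11 of the 31. Genes over common fragile sites had 74 of 190 lower (38.9%) and 12 higher. For channel and synapse genes the counts were 37 lower and 9 higher of 114, for transcription and chromatin genes 41 and 7 of 133, and for intracellular signalling 56 and 20 of 195. Adhesion and polarity genes had 78 lower and 35 higher of 283, and RNA-binding genes 6 and 0 of 20. RBMS3 alone gave 18 of these 20 and all 6 lower ones. Over all tested intervals 18.7% were lower, as given above, and over all long-gene intronic ones 30.4%, and no list was tested against the rest.

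The summit windows held few promoter-like letters. GGGCGG (KLF and SP factors) was found in 2.64% of long-gene intronic windows, 4.22% of other distal windows and 17.3% of all 35524 windows, and CCGGAAG (ETS factors) in 0.451%, 0.871% and 2.14%. The letters of enhancer-binding factors went the other way. TGANTCA (the AP-1 letters) was in 8.51%, 6.64% and 5.15%, AGATAA (the letters for the GATA factors) in 13.1%, 12.3% and 9.21%, TGTGGT (RUNX) in 15.1%, 14.3% and 11.5%, and TTGCNNAA (CEBP) in 10.4%, 9.24% and 7.46%. GGAATG (TEAD), ACANNNTGT (glucocorticoid receptor) and TGTTTAC (FOX) were in 11.8%, 7.02% and 3.93% of long-gene intronic windows, and 1 window held TGACGTCA (CRE).

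Between the intervals ranked lower and those ranked higher, the letters differed along with GC. The lower ones had a median of 38.0% GC over the interval and the higher ones 41.5%. AGATAA was in 15.8% of the 456 lower windows and 8.33% of the 168 higher ones, and TTGCNNAA in 11.8% and 4.76%, while TGANTCA was in 9.87% and 7.74%. For other distal intervals the shares were 13.8% and 10.5% for AGATAA and 10.8% and 8.54% for TTGCNNAA. Summits of H3K27ac lie on nucleosomes beside the bound site, and these letters count matches only.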

How the data were processed

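The deposited lists hold one narrow peak per line. By the column order of the narrowPeak format, each has the fold over local background (a linear ratio), -log10 p and -log10 q. The authors made them from ChIP-seq reads aligned with BWA to hg38 and called with MACS2, one list per library. The smallest deposited -log10 q was 1.3. Which input served as control is not given in the sources used here, and the 2 input libraries were not analysed. The authors reduced the reads to a shared maximum per sample for comparable depth, but whether the lists come from the reduced reads is not given, and without counts no counting interval can be given.

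Peaks were merged across the 6 lists and filtered by fold. Positions were taken from GENCODE release 44 (Ensembl canonical exons, starts of every transcript). limma 3.58.1 (lmFit, then eBayes with a trend; R 4.3.3) was fitted to normal scores, CREBBP-KO minus WT, over all intervals with a peak in all 6 libraries and, for genes, over mean scores of genes with at least 3 such distal intronic intervals, with Benjamini-Hochberg adjustment. For single values, the genotypes were set against each other by an exact permutation test, two-sided. The code ran on scipy 1.17.1, pysam 0.24.0, pandas 2.3.3 and numpy 2.4.6 under Python 3.11.15, and was tested on simulated data with planted intervals and shifts.

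Named in the text are the genes with most intervals (those tied at 17 included), the 6 largest shifts each way (at most 2 per gene), every interval absent from one genotype, the 5 highest, the 5 largest gene-level shifts each way, the longest host and the items at each limit of the rule. The rule, the gene lists, motifs and tests were chosen with earlier results of these data known. The alternatives were other limits on fold, length, distance and significance, other scales, a replicate block, lists of equal length and leaving out each library. The removal of GC trends and the counts and gene means over intervals passing in both genotypes were chosen after seeing the data.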

Additional observations from a re-analysis of the deposited data

Results flagged for a closer look

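The height filter left out 6223 intervals that met the position rule, and 981 of them had a peak in all 6 libraries. Among those left out, 171 were listed by every CREBBP-KO library but by no WT one, and 137 the other way round. They drew attention as signal in data that the comparisons did not use. Over the whole genome the counts below the filter were 3719 and 1490, and each CREBBP-KO list was longer than each WT list.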

How the results depend on the processing

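Removal of the GC trend gave 262 intervals higher and 299 lower and 26 long genes higher and 40 lower, and together with the replicate block 260, 302, 24 and 42. With the block added, 17.3% of intervals were higher and 20.1% lower, beside 16.2% and 16.7% of all tested. Of long genes 13.8% were higher and 24.1% lower, beside 17.6% and 18.7% of all genes fitted. Ranks taken from -log10 p gave 293 lower (19.5%), beside 12.9% of all tested intervals and 16.4% of other distal ones. Counting only intervals that passed in both genotypes gave 76 higher and 255 lower, by fewer intervals, and gene means over them 10 and 58 long genes. A fold of at least 3 gave 3112 intervals and 7 long genes higher. A fold of at least 10 gave 453 intervals, 52 higher and 174 lower, and 4 and 35 long genes. There 11.5% of tested intervals were higher and 38.5% lower, beside 22.4% and 21.5% of all tested. Other distal intervals were higher in 14.7% and lower in 33.2%. Of long genes 5.48% were higher and 47.9% lower, beside 8.77% and 43.5% of all genes fitted. A gene length of 300 kb gave 3307 intervals, 399 higher and 891 lower, and 51 and 163 genes, and a length of 1 Mb gave 388, 26, 138, 1 and 24. At 300 kb 12.4% of tested intervals were higher and 27.7% lower, and at 1 Mb 7.01% and 37.2%. Of all tested, 18.6% and 18.7% were. The gene shares were 12.2% and 39.0% at 300 kb and 2.44% and 58.5% at 1 Mb, beside 15.0% and 31.5% of all genes fitted. Peaks within 250 bases of the summit as the same site gave 77 higher and 234 lower of 694 tested. These were 11.1% and 33.7%, beside 21.0% and 20.8% of all tested and 15.5% and 27.6% of other distal intervals. An adjusted p under 0.0001 gave 14 and 42 intervals (shares above) and 1 and 16 genes. The genes were 0.575% and 9.20% of long genes, beside 0.940% and 4.08% of all genes fitted. A -log10 q of at least 5 gave 11 genes higher (6.47%, beside 12.3% of all genes fitted). Without one library each, there were 1607 to 1687 intervals, 117 to 155 higher and 362 to 456 lower, and 10 to 18 and 66 to 75 genes (10 higher without WT replicate 1). The higher share was 7.44% to 10.0%, beside 13.7% to 18.6% of all tested, and the lower share 23.3% to 28.2%, beside 14.9% to 17.3%. Of long genes 5.71% to 10.2% were higher and 37.7% to 42.1% lower. For all genes fitted these were 10.9% to 14.1% and 26.9% to 32.2%.

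The difference in median percentile turned negative with a fold of at least 10 (-0.90), a -log10 q of at least 5 (-2.37), a length of 1 Mb (-1.54) and lists of equal length (-3.47), and ran from -0.39 to 1.13 without one library each, negative without WT replicate 3. The difference in peaks per library was -280 (-279.667) with equal lists and 0 with a -log10 q of at least 5, and 294 to 615 without one library each, and the difference in share was between -0.32 and -0.15 over all alternatives that bear on it, and between -0.32 and -0.19 without one library each. Where the construction does not show it, the cause was not tested.

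The replicate numbers of the labels share only a number: deviations of same-numbered libraries correlated at 0.01, 0.01 and 0.03, and not every library correlated best with its own number. With the replicate block 169 intervals were higher and 452 lower and 14 and 73 genes. These were 11.3% and 30.1% of intervals, beside 18.7% and 18.8% of all tested. The genes were 8.05% and 42.0% of long genes, beside 13.7% and 30.4% of all genes fitted.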
